A study of Homo sapiens with 45 samples.

Results

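The collagen genes of 13 human sarcoma cell lines were followed in poly(A) RNA sequencing data. A gene was counted as a member when its symbol was COL, 1 or 2 digits, A and 1 or 2 digits and when at least 1 curated RefSeq mRNA carried that symbol. This gave 44 collagens of the 41582 genes to which transcripts were assigned, and they fell into 8 classes of collagen. Levels were summed over all RefSeq transcripts of a gene and are given in TPM, which scales each transcript's share of a library by its length, so that levels of different collagens can be set side by side.

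The study compared 7 Ewing sarcoma lines (A673, TC71, SKES1, RDES, MHHES1, EW24 and EW3) with 6 osteosarcoma lines (U2OS, SAOS2, MG63, G292 and the pair HOS-MNNG and KHOS), each with 3 libraries and with no treatment named. Ewing sarcoma is a bone and soft tissue tumour of the young whose driver joins part of EWSR1 to an ETS transcription factor, most often FLI1, and osteosarcoma is a tumour of bone-forming cells. HOS-MNNG and KHOS both derive from the HOS line. The A673 line was also studied with the hairpin sh908 against KCNN1, a potassium channel gene, in 3 libraries without and 3 with the inducer doxycycline. Every sh908 library carried the hairpin construct, so the parental A673 libraries are the only A673 libraries without it. The labels give no dose or time of doxycycline and no other hairpin, and they do not say whether replicates were separate cultures, so that p-values within A673 measure only the spread between these libraries, which may be technical. The library total ranged from 15974173 to 51413254 estimated counts over the 45 libraries.

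Collagens are secreted or membrane-bound proteins built of 3 chains wound into a triple helix, and each chain is encoded by a gene of its own. Fibrillar collagens such as types I, III and V form the cables of bone and connective tissue. Type IV forms the sheets of basement membranes, type VI forms beaded filaments around cells, and FACIT collagens bind to the surface of fibrils. In bone, type I collagen is the main organic component of the matrix and is made by osteoblasts. A helix can form from 1 kind of chain or from chains of several genes, so the balance between partner chains bears on which molecules a cell can assemble.

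The lines were first checked against markers of their labelled type. PRKCB, a kinase gene high in Ewing sarcoma, measured 55.3 to 233 TPM in the Ewing sarcoma lines and at most 0.132 TPM in the osteosarcoma lines. By contrast, NR0B1, a target of the fusion protein, reached just 0.651 TPM in MHHES1 and 0.316 TPM in RDES. The 5 Ewing sarcoma markers summed to 703 to 2017 TPM in Ewing sarcoma lines, against 143 to 969 TPM in the osteosarcoma lines, where the surface protein gene CD99 alone held 117 to 944 TPM. The 6 osteoblast lineage markers summed to 5.17 to 196 and 10.7 to 1034 TPM. ALPL held 187 TPM of this in SKES1 and 824 TPM in SAOS2. RUNX2 ranged from 0.0223 to 6.77 TPM in Ewing sarcoma lines and from 0.390 (MG63) to 186.7 TPM (SAOS2) in osteosarcoma lines. SPP1 reached at most 0.617 TPM in Ewing sarcoma lines and ranged from 0.0269 (MG63) to 196.5 TPM (KHOS) in osteosarcoma lines. In the edgeR test below these 2 of 4 tested markers were called lower in Ewing sarcoma, against 8.4% of all genes. The bone transcription factor gene SP7 reached 22.1 TPM in SAOS2 and at most 0.0139 TPM in the other osteosarcoma lines, and the bone sialoprotein gene IBSP stayed at or below 0.367 TPM in all 13 lines. The 7 epithelial, blood and endothelial markers summed to 7.36 to 26.4 TPM in Ewing sarcoma lines, against 41.8 to 892 TPM in the osteosarcoma lines. KRT8 held 793 TPM of this in HOS-MNNG and 478 TPM in U2OS, CD68 held 108 TPM in KHOS and EPCAM 27.5 TPM in SAOS2. PTPRC and PECAM1 did not exceed 1.41 TPM in any line, and the vessel cadherin gene CDH5 reached 5.28 TPM in MG63 and at most 1.33 TPM elsewhere. The part of these marker differences in the collagen values was not tested. As these are bulk RNA samples, fewer cells that express a gene and less RNA per cell cannot be told apart.

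Osteosarcoma lines carried more collagen RNA than Ewing sarcoma lines. The 44 genes summed to 211 TPM in TC71, the lowest line, and to 1023 TPM in A673, the highest Ewing sarcoma line. The osteosarcoma lines ran from 1096 TPM in KHOS to 10110 TPM in SAOS2, where collagens made up 1.01% of all transcripts by TPM. By line means the sums of the tumour types did not overlap, with medians of 534 and 2803 TPM, but single libraries of A673 (up to 1056 TPM) and KHOS (from 1051 TPM) did. Type VI chains made up 35.4 to 55.2% of all collagen TPM in the osteosarcoma lines other than U2OS (14.4%) and 2.63 to 17.7% in the Ewing sarcoma lines. FACIT genes made up 13.8 to 39.7% in Ewing sarcoma lines but 0.809 to 11.6% in osteosarcoma lines, while their summed level overlapped at 51.9 to 167 and 15.6 to 231 TPM. In total, 30 collagens reached 10 TPM in at least 1 line, 9 peaked between 1 and 10 TPM, and 5 (COL4A3, COL4A6, COL6A5, COL20A1 and COL28A1) stayed under 1 TPM in every line. Only COL5A2 reached 10 TPM in all 13 lines, and 6 collagens reached it in a single line. The highest line was an osteosarcoma line for 31 collagens, 10 of them in SAOS2, and an Ewing sarcoma line for 13. These counts include the 5 collagens under 1 TPM in every line, and the same count was not made over all genes. Over the 166 combinations of a collagen and a line at 10 TPM or more, the SD of the 3 libraries was 10.6% of the mean in the median combination, with a range of 1.16 to 54.5%.

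**Figure D1:**
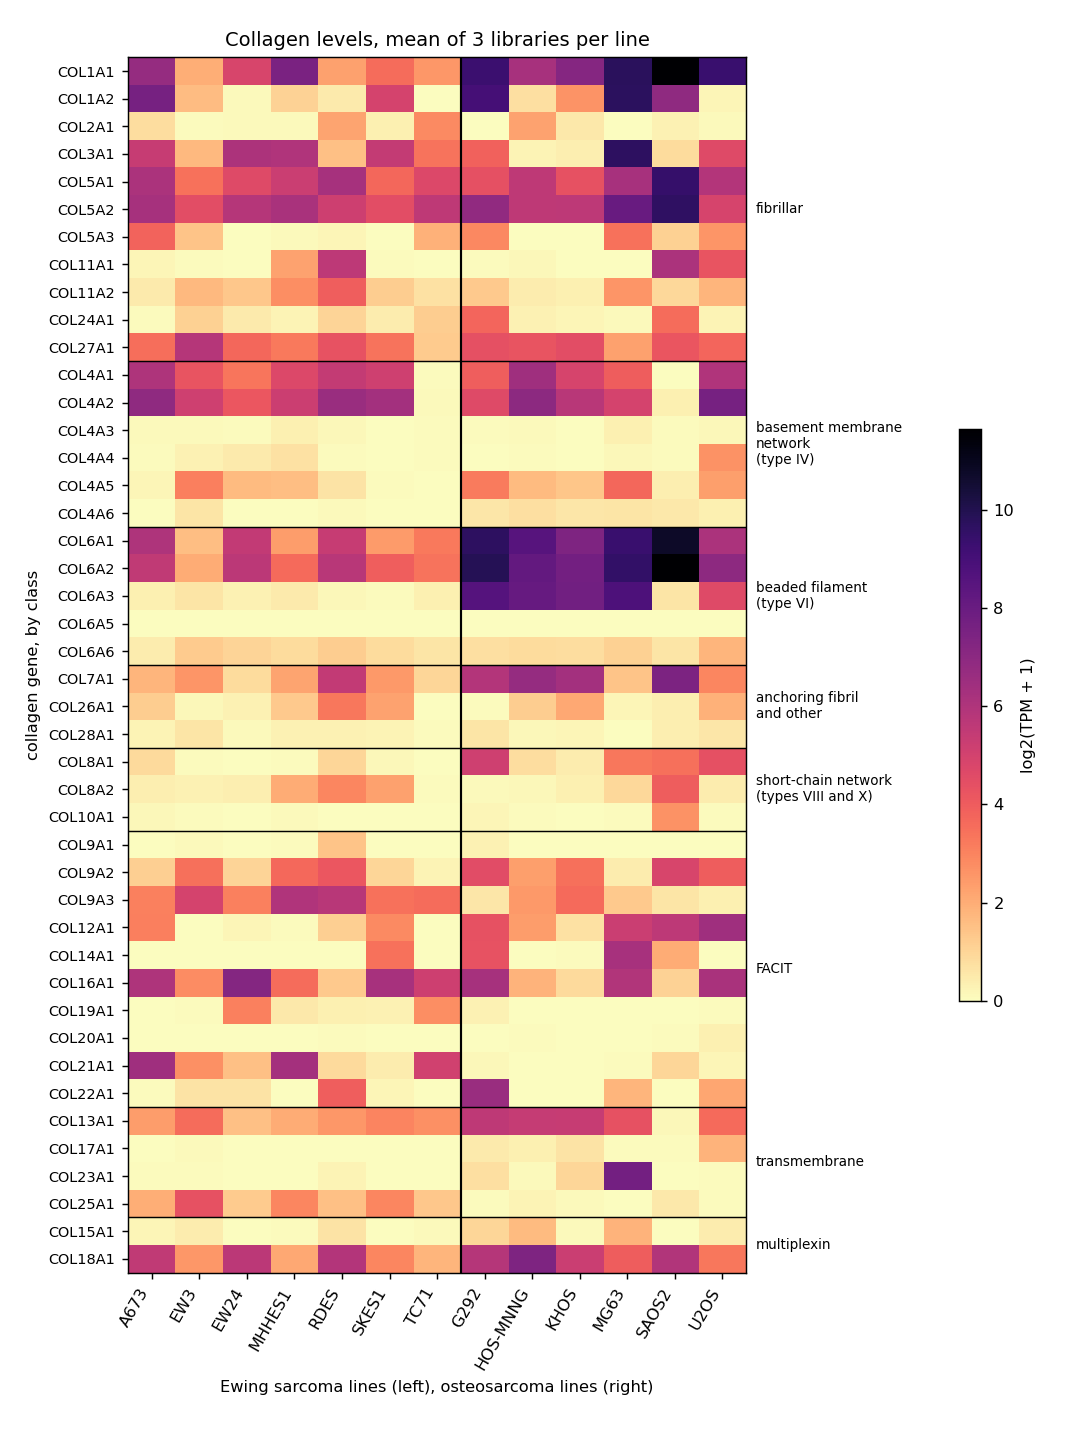
Mean level of each of the 44 collagens (rows, grouped by class) in each of the 13 lines (columns, 3 libraries each), as colour on a log2(TPM + 1) scale, with Ewing sarcoma lines on the left of the vertical line. COL6A1, COL6A2 and COL6A3 are dark in most osteosarcoma columns, COL6A3 in SAOS2 (0.515 TPM) being pale, and COL25A1 is coloured in the Ewing sarcoma columns.

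To compare the tumour types, the counts of each line were summed over its 3 libraries and 7 Ewing sarcoma lines were tested against 6 osteosarcoma lines with edgeR's quasi-likelihood test, with Benjamini-Hochberg adjustment over all genes. Of the 44 collagens, 38 passed the filter on low counts, and 9 of these (23.7%) had an adjusted p under 0.05, against 14.4% of the 22000 genes tested. Type VI collagen genes COL6A1, COL6A2 and COL6A3, the type I chain COL1A1, COL8A1 and COL17A1 were lower in the Ewing sarcoma lines, 6 genes where 8.4% of all genes were called lower. COL19A1, COL21A1 and COL25A1 were higher, where 5.96% of all genes were called higher. Of the 38 tested collagens 30 had a negative fold change (78.9%), against 53.4% of all genes, and the median log2 fold change was -1.55 for the collagens and -0.06 for all genes. COL6A5, COL9A1, COL10A1, COL14A1, COL20A1 and COL23A1 did not pass the filter, which asks for counts in several lines. With no filter, 9 collagens were called against 10.5% of 37204 genes, 7 lower (6.42% of all genes) and 2 higher (4.07%): COL23A1 joined the list and COL19A1 left it, with an edgeR adjusted p of 0.0516. DESeq2 called 16 of 34 collagens, against 25.1% of all genes: the 9 above with COL5A2, COL7A1, COL9A3, COL12A1, COL13A1, COL15A1 and COL24A1. Below, a gene is called when edgeR called it, unless another test is named. With HOS-MNNG and KHOS summed into 1 line 9 were called, against 12.4% of all genes, 8 of them shared with the list above: COL5A2 joined (edgeR adjusted p = 0.0451) and COL19A1 left (adjusted p = 0.084).

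**Figure D2:**
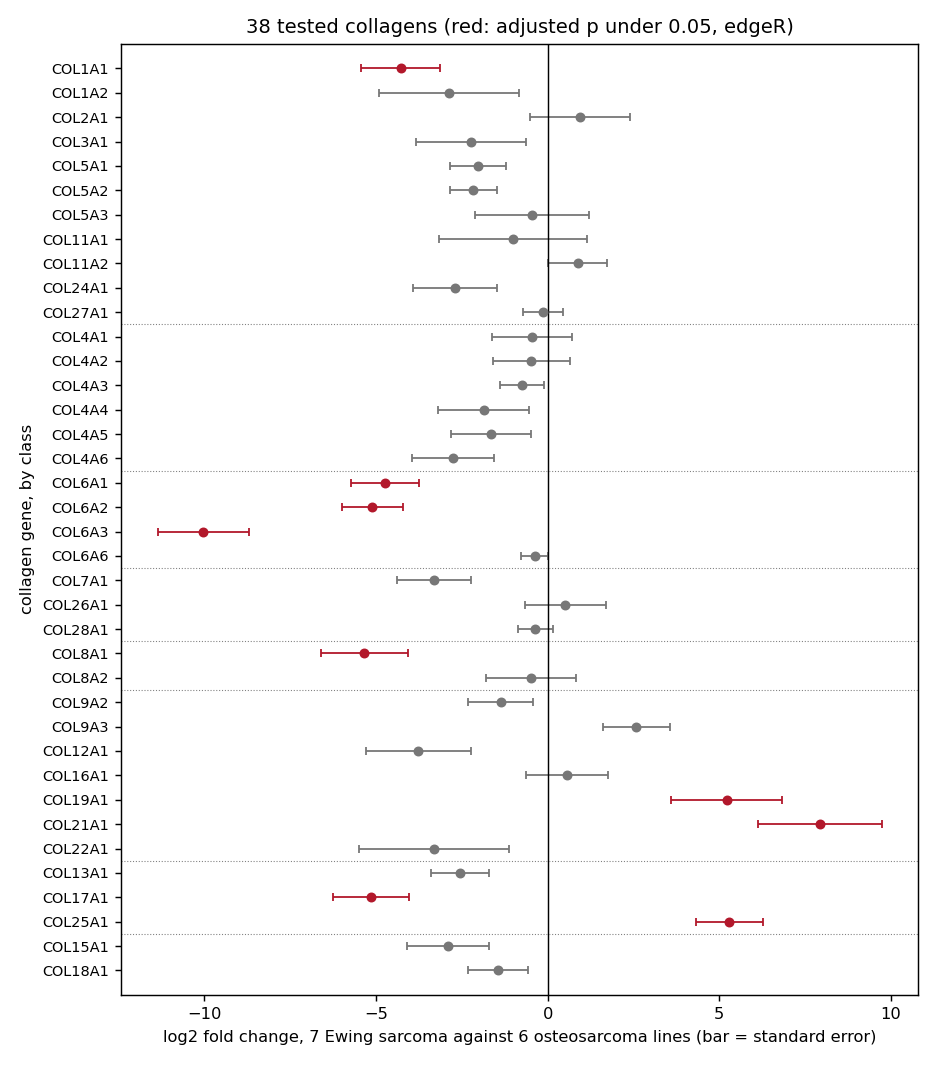
Log2 fold change of Ewing sarcoma against osteosarcoma lines for the 38 tested collagens by class, with the standard error from edgeR as bars and calls in red. COL6A3 lies farthest to the left at -10.03, COL21A1 farthest to the right at 7.93, and 8 collagens lie to the right of 0.

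A second test used the per-length scale: the mean log2(TPM + 1) of the lines was compared over all 1716 splits of 13 lines into 7 and 6, 2-sided, with the smallest possible p at 0.000583. COL6A1, COL6A2, COL6A3, COL17A1 and COL25A1 passed an adjusted p of 0.05 in this exact permutation test, 5 collagens beside 5.21% of the 37387 genes tested. COL1A1 missed it (exact permutation p = 0.00524, adjusted p = 0.0675), and so did COL8A1 (adjusted p = 0.0561), COL21A1 (adjusted p = 0.109) and COL19A1 (adjusted p = 0.339). Fewer collagens passed this test with HOS-MNNG and KHOS taken as 1 line, as given in the closing section.

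Of the 8 classes, type VI had the most genes called by edgeR, 3 of 4 tested, with a median log2 fold change of -4.92, while DESeq2 called 3 of its genes and 4 FACIT genes. COL6A1, COL6A2 and COL6A3 encode the chains of the classical type VI molecule, which binds cells to the surrounding matrix. COL6A1 and COL6A2 lie in tandem on chromosome 21 (GRCh38.p14; bases 45981770 to 46005048 and 46098112 to 46132848), whereas COL6A3 lies on chromosome 2 (237324018 to 237414164). COL6A1 measured 63.95 TPM in A673, 1.96 in EW3, 44.02 in EW24, 4.31 in MHHES1, 39.6 in RDES, 4.36 in SKES1 and 8.54 in TC71, against 822 TPM in G292, 364 in HOS-MNNG, 168 in KHOS, 654 in MG63, 1730 in SAOS2 and 69.03 in U2OS. All 6 osteosarcoma lines were above all 7 Ewing sarcoma lines by their means, although the highest Ewing sarcoma line, A673 (63.95 ± 3.61 TPM, SD, n = 3), and the lowest osteosarcoma line, U2OS (69.0 ± 7.12 TPM), overlapped by library at 61.8 to 68.1 and 60.8 to 73.7 TPM. Its log2 fold change was -4.74 ± 0.98 (SE; edgeR adjusted p = 0.00703), and the exact permutation test gave an adjusted p of 0.0239.

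COL6A2 measured 45.4 TPM in A673, 3.11 in EW3, 49.5 in EW24, 11.1 in MHHES1, 53.5 in RDES, 14.5 in SKES1 and 9.34 in TC71, against 943 TPM in G292, 282 in HOS-MNNG, 206 in KHOS, 731 in MG63, 3156 in SAOS2 and 121 in U2OS. Here too the lines did not overlap, and the highest Ewing sarcoma line was RDES. Its log2 fold change was -5.11 ± 0.89 (SE; edgeR adjusted p = 0.00279). COL6A1 and COL6A2 were the only collagens below all osteosarcoma lines in every Ewing sarcoma line, a pattern held by 2.39% of all genes tested. Within each line these neighbours were at similar levels: the ratio of COL6A2 to COL6A1 stayed between 0.711 (A673) and 3.33 (SKES1) in the 13 lines, over which COL6A1 itself ranged from 1.96 to 1730 TPM.

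COL6A3, the largest chain of the type, measured 0.2497 TPM in A673, 0.518 in EW3, 0.228 in EW24, 0.404 in MHHES1, 0.112 in RDES, 0.0375 in SKES1 and 0.269 in TC71, against 385 TPM in G292, 266 in HOS-MNNG, 217 in KHOS, 442 in MG63, 0.515 in SAOS2 and 23.3 in U2OS. The MHHES1 mean rests on 1 library, with 0.026, 1.15 and 0.041 TPM. No Ewing sarcoma line mean exceeded 0.518 TPM, 5 osteosarcoma lines lay between 23.3 and 442 TPM, and SAOS2 (0.515 ± 0.165 TPM, n = 3) lay at the level of the Ewing sarcoma line EW3 (0.518 ± 0.210 TPM). For COL6A3 the log2 fold change was -10.03 ± 1.33 (SE; edgeR adjusted p = 0.000524). SAOS2 thus held the highest COL6A1 and COL6A2 of all lines with hardly any COL6A3, while the other 5 osteosarcoma lines had a COL6A1 to COL6A3 ratio of 0.788 (KHOS) to 2.999 (U2OS). In those 5 lines the RefSeq transcript NM_057167.4 made up 64.7 to 77.9% of COL6A3 and NM_057166.5 made up 21.2 to 29.2% by line means. The libraries of U2OS spread from 49.2 to 85.4% and from 12.5 to 50.2%. The main COL6A2 transcript, NM_001849.4, made up 69.98 to 89.3% in all lines and A673 groups. The alternative chains stayed low: COL6A6 ranged from 0.331 to 2.45 TPM without a called difference, and COL6A5 did not exceed 0.0214 TPM.

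The 120 bases before the start sites of COL6A2 and COL6A3 are shown because SAOS2 had much of the first chain and hardly any of the second. Both come from the RefSeq promoter table of GRCh38.p14, which held 32 of the 44 collagens, and each is printed 5′ to 3′ on the strand of the gene. Searched on both strands, and in capitals where found, were CCAAT, which is bound by the factor NF-Y, the TATA box in the form TATAAA, the GC box of SP1 in the form GGGCGG, and the repeated ETS core in the form GGAAGGAA.
COL6A2, chr21:46097992-46098111, plus strand: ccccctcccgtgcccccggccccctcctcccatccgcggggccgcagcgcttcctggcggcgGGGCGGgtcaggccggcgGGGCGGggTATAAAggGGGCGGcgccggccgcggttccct
COL6A3, chr2:237414165-237414284, minus strand: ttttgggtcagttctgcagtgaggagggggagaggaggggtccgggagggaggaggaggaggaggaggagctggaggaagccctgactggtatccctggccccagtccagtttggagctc
The COL6A2 stretch held TATAAA once and GGGCGG 3 times, and the COL6A3 stretch held no match to any of the 4. Over the same 120 bases, 5.63% of 35116 annotated promoters held TATAAA, 33.98% held GGGCGG, 20.4% held CCAAT and 1.48% held GGAAGGAA. None of the 44 promoters listed for 32 collagens held GGAAGGAA there. A match is a run of letters and not a shown binding site.

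**Figure D3:**
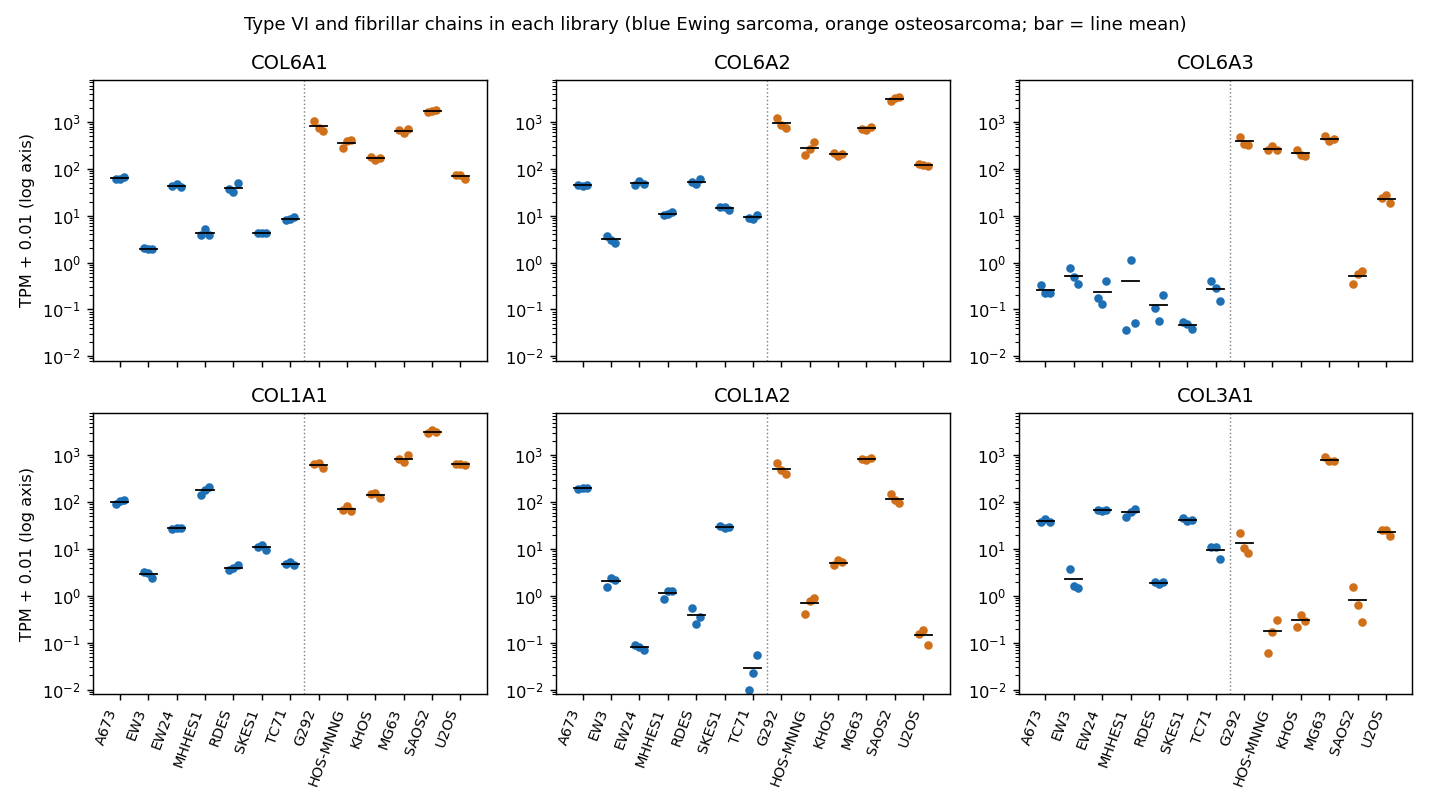
Level of 3 type VI and 3 fibrillar genes in every library (points; TPM + 0.01 on a log axis) of the 7 Ewing sarcoma (blue) and 6 osteosarcoma lines (orange), with a bar at each line mean. COL6A3 lies below 1.2 TPM in all blue points and in the 3 points of SAOS2, and COL1A2 line means run from 0.0192 to 197 TPM in blue and from 0.134 to 838 TPM in orange.

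Among the fibrillar collagens, COL1A1 was the only 1 of 11 called by edgeR, and DESeq2 also called COL5A2 and COL24A1 lower. It encodes the alpha 1 chain of type I collagen, which joins with the alpha 2 chain of COL1A2 in bone and tendon. COL1A1 (chromosome 17, 50184101 to 50201631) measured 102 TPM in A673, 2.93 in EW3, 27.9 in EW24, 179.7 in MHHES1, 3.99 in RDES, 10.8 in SKES1 and 4.82 in TC71, against 626 TPM in G292, 72.4 in HOS-MNNG, 143 in KHOS, 853 in MG63, 3192 in SAOS2 and 645 in U2OS. Levels in A673 and MHHES1 reached above the lowest osteosarcoma line, HOS-MNNG (72.4 ± 9.33 TPM, n = 3), so the groups overlapped. The log2 fold change was -4.29 ± 1.14 (SE; edgeR adjusted p = 0.0244). Without SAOS2, whose 3192 ± 203 TPM was 3.74 times the next line, it was -3.42 with an edgeR adjusted p of 0.052.

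COL1A2 (chromosome 7, 94394895 to 94431227) measured 197 TPM in A673, 2.07 in EW3, 0.0714 in EW24, 1.12 in MHHES1, 0.379 in RDES, 29.5 in SKES1 and 0.0192 in TC71, against 520.0 TPM in G292, 0.6904 in HOS-MNNG, 5.11 in KHOS, 838 in MG63, 118 in SAOS2 and 0.134 in U2OS. It reached 10 TPM in A673 and SKES1 among the Ewing sarcoma lines and in G292, MG63 and SAOS2 among the osteosarcoma lines, and its difference between the types was not called (edgeR adjusted p = 0.377). The chains of type I collagen stood in no fixed ratio. Where both reached 1 TPM, which was so in 8 lines, COL1A1 over COL1A2 ran from 0.367 in SKES1 to 161 in MHHES1. U2OS had 645 ± 26.6 TPM of COL1A1 beside 0.134 ± 0.050 TPM of COL1A2 (n = 3), and EW24 had 27.9 beside 0.0714 TPM. G292 and MG63 held 520.0 and 838 TPM of COL1A2, close to their COL1A1.

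COL3A1, which encodes the type III chain of elastic tissues and wound matrix, measured 39.7 TPM in A673, 2.28 in EW3, 67.2 in EW24, 61.5 in MHHES1, 1.896 in RDES, 42.6 in SKES1 and 9.39 in TC71, against 13.6 TPM in G292, 0.171 in HOS-MNNG, 0.288 in KHOS, 800.4 in MG63, 0.798 in SAOS2 and 23.3 in U2OS. MG63 stood above all others, at 11.9 times the next line, EW24, while HOS-MNNG, KHOS and SAOS2 were under 1 TPM. No Ewing sarcoma line was that low, and the fitted log2 fold change (-2.22 ± 1.60, SE) and the difference in mean log2(TPM + 1) (0.95) had opposite signs. The difference was not called by either test (edgeR adjusted p = 0.385, exact permutation adjusted p = 0.789).

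Type V collagen nucleates and trims type I fibrils. COL5A1 measured 67.5 TPM in A673, 9.701 in EW3, 23.2 in EW24, 37.4 in MHHES1, 74.3 in RDES, 12.04 in SKES1 and 25.5 in TC71, against 19.9 TPM in G292, 45.8 in HOS-MNNG, 19.5 in KHOS, 73.6 in MG63, 689 in SAOS2 and 58.6 in U2OS. COL5A2 measured 74.97 TPM in A673, 21.3 in EW3, 56.7 in EW24, 70.4 in MHHES1, 35.1 in RDES, 21.6 in SKES1 and 45.8 in TC71, against 114 TPM in G292, 45.8 in HOS-MNNG, 47.7 in KHOS, 259 in MG63, 776 in SAOS2 and 29 in U2OS. SAOS2 was highest for both, and of all lines and both chains only EW3 was under 10 TPM, for COL5A1. COL5A2 had a log2 fold change of -2.17 ± 0.69 (SE) with an edgeR adjusted p of 0.0526, just over the threshold, and the COL5A2 to COL5A1 ratio ran from 0.484 in RDES to 5.77 in G292. Over 24 other count-based settings, 9 of which called COL5A2, its log2 fold change ran from -2.4 to -1.22, with adjusted p up to 0.167. COL5A3, a chain found in some type V molecules, measured 13.1 TPM in A673, 1.72 in EW3, 0.0113 in EW24, 0.0737 in MHHES1, 0.137 in RDES, 0.0188 in SKES1 and 2.73 in TC71, against 6.48 TPM in G292, 0.00997 in HOS-MNNG, 0.00269 in KHOS, 9.83 in MG63, 1.196 in SAOS2 and 4.89 in U2OS. It was highest in A673 and above 1 TPM in 7 lines of both types. The G292 libraries disagreed, at 13.5, 3.03 and 2.96 TPM.

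Type XI collagen forms a cartilage fibril core. Of its chains, COL11A1 reached 1 TPM in 4 lines and COL11A2 in 8. COL11A1 measured 0.154 TPM in A673, 0.0549 in EW3, 0.00295 in EW24, 3.697 in MHHES1, 47.6 in RDES, 0.0391 in SKES1 and 0.0149 in TC71, against 0.0435 TPM in G292, 0.101 in HOS-MNNG, 0.00693 in KHOS, 0.0155 in MG63, 67.6 in SAOS2 and 17.97 in U2OS. RDES, SAOS2 and U2OS stood out from the rest. COL11A2 measured 0.378 TPM in A673, 2.22 in EW3, 1.57 in EW24, 5.799 in MHHES1, 14.2 in RDES, 1.32 in SKES1 and 0.623 in TC71, against 1.49 TPM in G292, 0.358 in HOS-MNNG, 0.278 in KHOS, 4.92 in MG63, 0.924 in SAOS2 and 2.47 in U2OS. It was highest in RDES, and MHHES1, RDES and U2OS had both type XI chains above 1 TPM. COL2A1, the cartilage type II chain that also pairs with type XI chains, reached 6.14 TPM in TC71, 3.74 TPM in HOS-MNNG and 3.62 TPM in RDES and at most 0.748 TPM elsewhere.

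COL24A1 and COL27A1 are fibrillar collagens of developing bone and cartilage. COL24A1 measured 0.04497 TPM in A673, 1.16 in EW3, 0.412 in EW24, 0.184 in MHHES1, 1.04 in RDES, 0.3302 in SKES1 and 1.27 in TC71, against 12.7 TPM in G292, 0.233 in HOS-MNNG, 0.157 in KHOS, 0.0956 in MG63, 10.7 in SAOS2 and 0.172 in U2OS. G292 and SAOS2 were the lines at 10 TPM. COL27A1 measured 10.7 TPM in A673, 55.6 in EW3, 12.2 in EW24, 8.55 in MHHES1, 18.7 in RDES, 9.58 in SKES1 and 1.37 in TC71, against 19.7 TPM in G292, 18.1 in HOS-MNNG, 21.3 in KHOS, 3.86 in MG63, 17.7 in SAOS2 and 12.5 in U2OS. It was highest in EW3 and, at 1.37 TPM, lowest in TC71.

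Type IV collagen was present in 11 lines as a matched pair of chains and at trace level in TC71 and SAOS2. COL4A1 and COL4A2 encode the chains of the common basement membrane collagen and lie head to head on chromosome 13, with 126 bases between their start sites. COL4A1 measured 64.96 TPM in A673, 18.2 in EW3, 9.204 in EW24, 25.5 in MHHES1, 42.9 in RDES, 33.2 in SKES1 and 0.0485 in TC71, against 14.1 TPM in G292, 86.5 in HOS-MNNG, 28.7 in KHOS, 14.6 in MG63, 0.0173 in SAOS2 and 62.5 in U2OS. COL4A2 measured 117 TPM in A673, 33.5 in EW3, 16.7 in EW24, 35.9 in MHHES1, 96.2 in RDES, 80.02 in SKES1 and 0.0765 in TC71, against 23.2 TPM in G292, 125 in HOS-MNNG, 52.3 in KHOS, 29.4 in MG63, 0.258 in SAOS2 and 195 in U2OS. In the 11 lines where both reached 1 TPM, COL4A2 over COL4A1 lay between 1.41 (MHHES1) and 3.17 (U2OS), a 2.25-fold range. Neither gene differed between tumour types (edgeR adjusted p = 0.832 for COL4A1 and 0.816 for COL4A2), and none of the 6 type IV genes was called. TC71 was the only Ewing sarcoma line and SAOS2 the only osteosarcoma line without them.

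The stretch between the start sites is shown because these neighbours were high or near 0 in the same lines. It is printed on the plus strand, the strand of COL4A2, from the base after the COL4A1 start to the base before the COL4A2 start, with matches to the 4 motifs in capitals.
COL4A1 to COL4A2, chr13:110307158-110307283, plus strand: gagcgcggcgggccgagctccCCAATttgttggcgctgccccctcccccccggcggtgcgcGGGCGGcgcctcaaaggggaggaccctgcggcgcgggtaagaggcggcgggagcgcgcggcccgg
It held CCAAT once and GGGCGG once, and 80.2% of its bases were G or C. The other type IV genes are also head to head in pairs, and these did not show the same match. COL4A3 and COL4A4 have 135 bases between their starts on chromosome 2, and U2OS held 5.25 TPM of COL4A4 with 0.129 TPM of COL4A3. COL4A5 and COL4A6 have 379 bases between their starts on the X chromosome. COL4A5, a chain of kidney and skin basement membranes, measured 0.144 TPM in A673, 7.54 in EW3, 2.21 in EW24, 1.94 in MHHES1, 0.5697 in RDES, 0.0612 in SKES1 and 0.0167 in TC71, against 8.26 TPM in G292, 2.16 in HOS-MNNG, 1.59 in KHOS, 11.97 in MG63, 0.292 in SAOS2 and 4.07 in U2OS, while COL4A6 did not exceed 0.668 TPM in any line.

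**Figure D4:**
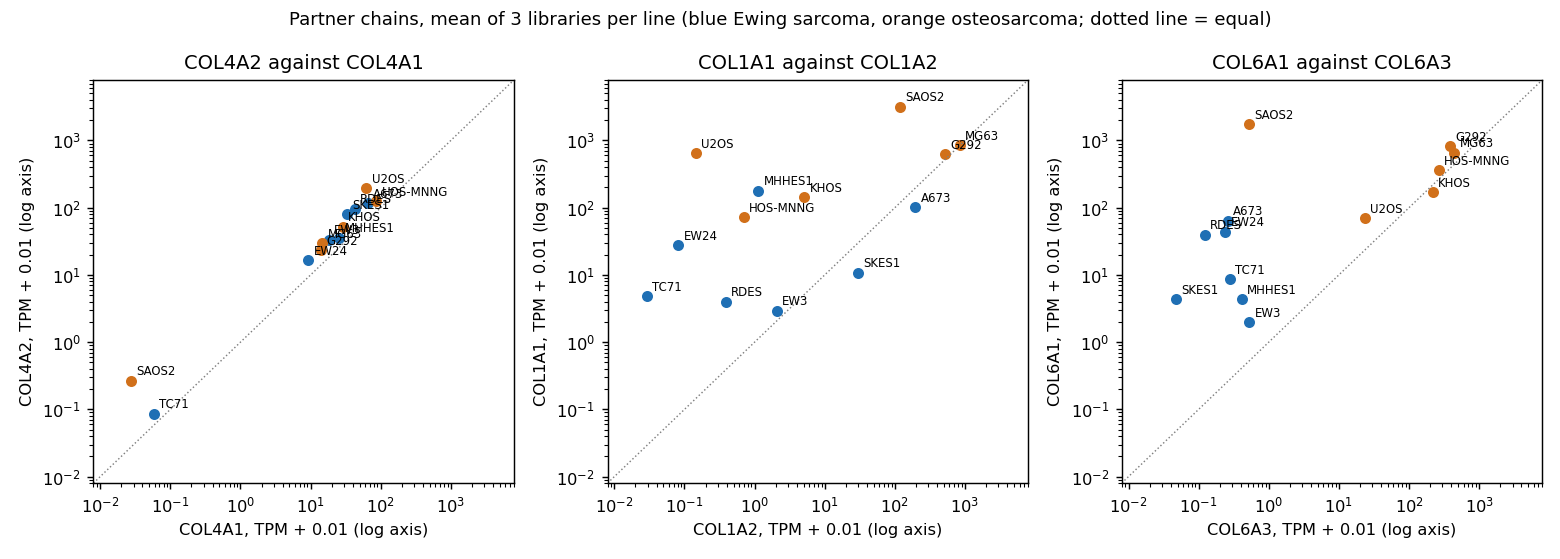
Line means of partner chains against each other (TPM + 0.01, log axes; blue Ewing sarcoma, orange osteosarcoma; dotted line at equal levels) for type IV, type I and type VI collagen. COL4A2 and COL4A1 lie along the diagonal, with TC71 and SAOS2 at the lower left, whereas U2OS in the middle panel and SAOS2 in the right panel, among other lines off the diagonal, have much of 1 chain and little of its partner.

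The 10 FACIT genes, whose products decorate fibrils, moved in no common direction: 4 of the 7 tested had a positive fold change and 3 a negative 1. COL21A1 (chromosome 6, 56056590 to 56394128) measured 86.4 TPM in A673, 5.43 in EW3, 1.84 in EW24, 77.8 in MHHES1, 0.834 in RDES, 0.3397 in SKES1 and 32.4 in TC71, against 0.134 TPM in G292, 0.0137 in HOS-MNNG, 0 in KHOS, 0.0426 in MG63, 0.997 in SAOS2 and 0.155 in U2OS. It was above 10 TPM in A673, MHHES1 and TC71 and under 1 TPM in all osteosarcoma lines, but RDES and SKES1 were also under 1 TPM, so the groups overlapped. For COL21A1 the log2 fold change was 7.93 ± 1.81 (SE; edgeR adjusted p = 0.0118). The 3 libraries of EW3 disagreed, with 12.5, 1.79 and 1.95 TPM. In KHOS no count was assigned in 3 libraries, which allows up to 0.016 TPM at 3 counts over the line.

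COL19A1 (chromosome 6, 69866556 to 70212468) measured 0.0118 TPM in A673, 0.0538 in EW3, 7.37 in EW24, 0.425 in MHHES1, 0.262 in RDES, 0.217 in SKES1 and 5.82 in TC71, against 0.226 TPM in G292, 0.0144 in HOS-MNNG, 0.00376 in KHOS, 0.0278 in MG63, 0.0274 in SAOS2 and 0.0378 in U2OS. It was above 1 TPM in EW24 and TC71 only. Its log2 fold change of 5.21 ± 1.63 (SE) passed narrowly (edgeR adjusted p = 0.0474), and the call was lost in 16 of 24 other settings, with adjusted p up to 0.129. COL9A2 and COL9A3 encode chains of type IX collagen of cartilage. COL9A2 measured 1.23 TPM in A673, 10.2 in EW3, 1.05 in EW24, 11.5 in MHHES1, 16.9 in RDES, 0.959 in SKES1 and 0.197 in TC71, against 21.8 TPM in G292, 4.05 in HOS-MNNG, 10.3 in KHOS, 0.346 in MG63, 27.3 in SAOS2 and 14.9 in U2OS. COL9A3 measured 7.31 TPM in A673, 29.5 in EW3, 7.31 in EW24, 61.8 in MHHES1, 52.6 in RDES, 9.89 in SKES1 and 10.9 in TC71, against 0.503 TPM in G292, 4.59 in HOS-MNNG, 11.4 in KHOS, 1.44 in MG63, 0.529 in SAOS2 and 0.2500 in U2OS. COL9A3 was above 7 TPM in every Ewing sarcoma line and under 5 TPM in every osteosarcoma line but KHOS, with a log2 fold change of 2.58 ± 0.98 (SE; edgeR adjusted p = 0.095), and 3.83 with an adjusted p of 0.0213 without KHOS. Of 24 other count-based settings 4 called COL9A3, and the others gave adjusted p up to 0.164. The remaining chain, COL9A1, reached 1.72 TPM in RDES and at most 0.234 TPM elsewhere.

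COL12A1, which binds type I fibrils, measured 7.56 TPM in A673, 0.00967 in EW3, 0.151 in EW24, 0.0404 in MHHES1, 1.26 in RDES, 6.22 in SKES1 and 0.00856 in TC71, against 19.1 TPM in G292, 4.31 in HOS-MNNG, 0.614 in KHOS, 37.2 in MG63, 48.7 in SAOS2 and 85.2 in U2OS. Its highest 4 lines were osteosarcoma lines, but the difference was not called (edgeR adjusted p = 0.117). COL16A1 measured 64.4 TPM in A673, 6.01 in EW3, 149 in EW24, 10.9 in MHHES1, 1.48 in RDES, 72.5 in SKES1 and 34.4 in TC71, against 74.4 TPM in G292, 2.56 in HOS-MNNG, 0.876 in KHOS, 60.6 in MG63, 1.096 in SAOS2 and 70.9 in U2OS. It was high in lines of both types and had no called difference (edgeR adjusted p = 0.792). COL14A1, which regulates fibril growth, was present in MG63 (74.02 ± 9.03 TPM, n = 3), G292 (18.6 TPM), SKES1 (9.82 TPM) and SAOS2 (3.06 TPM) and at most 0.0523 TPM in the other lines. COL22A1, a collagen of tissue junctions, measured 0.0355 TPM in A673, 0.592 in EW3, 0.575 in EW24, 0.0277 in MHHES1, 14.4 in RDES, 0.142 in SKES1 and 0 in TC71, against 96.1 TPM in G292, 0 in HOS-MNNG, 0.00807 in KHOS, 2.44 in MG63, 0.00946 in SAOS2 and 3.51 in U2OS. G292 was 6.68 times the next line, RDES. COL20A1 did not exceed 0.252 TPM.

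Of the transmembrane collagens, which sit in the cell surface, COL25A1 was higher and COL17A1 lower in the Ewing sarcoma lines. COL25A1 is known from nerve and muscle development and from amyloid plaques, and lies on chromosome 4 (108808725 to 109302658). COL25A1 measured 2.93 TPM in A673, 19.4 in EW3, 1.34 in EW24, 6.55 in MHHES1, 1.89 in RDES, 6.73 in SKES1 and 1.53 in TC71, against 0.04495 TPM in G292, 0.205 in HOS-MNNG, 0.0714 in KHOS, 0.00469 in MG63, 0.433 in SAOS2 and 0.05699 in U2OS. All 7 Ewing sarcoma lines were above all 6 osteosarcoma lines, a pattern held by 3.19% of all genes tested. The gap between the groups ran from SAOS2 (0.433 ± 0.208 TPM, n = 3) to EW24 (1.34 ± 0.41 TPM). By library there was no gap, as the lowest TC71 library (0.518 TPM) lay below the highest SAOS2 library (0.671 TPM). The log2 fold change was 5.29 ± 0.97 (SE; edgeR adjusted p = 0.00377), and the exact permutation test gave an adjusted p of 0.032. In the count-based test it kept its call in all 24 other settings, as did COL6A1, COL6A2, COL6A3, COL8A1 and COL21A1. The permutation test called none of them, nor any other gene, without EW24, MHHES1, RDES or SKES1. Leaving out any Ewing sarcoma line leaves 6 lines against 6, with fewer splits and a larger smallest p. Why calls were lost without these lines in particular was not tested. The bases before its start site are given as those of the collagen that separated the tumour types in this direction.
COL25A1, chr4:109302659-109302778, minus strand: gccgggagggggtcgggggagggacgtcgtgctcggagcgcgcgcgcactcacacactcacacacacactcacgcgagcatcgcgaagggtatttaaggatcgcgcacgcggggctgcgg
None of the 4 motifs was found in it.

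COL17A1 (chromosome 10, 104031286 to 104085880), a hemidesmosome collagen of skin, measured 0.0109 TPM in A673, 0.0758 in EW3, 0 in EW24, 0.00808 in MHHES1, 0.0185 in RDES, 0.00397 in SKES1 and 0.0104 in TC71, against 0.401 TPM in G292, 0.269 in HOS-MNNG, 0.569 in KHOS, 0.0404 in MG63, 0.0489 in SAOS2 and 2.62 in U2OS. It was called lower at a log2 fold change of -5.15 ± 1.10 (SE; edgeR adjusted p = 0.00818), yet only U2OS exceeded 1 TPM. COL13A1, a collagen of cell-matrix and nerve-muscle contacts, measured 4.25 TPM in A673, 10.9 in EW3, 1.92 in EW24, 3.09 in MHHES1, 4.81 in RDES, 6.84 in SKES1 and 5.53 in TC71, against 46.9 TPM in G292, 40.3 in HOS-MNNG, 39.2 in KHOS, 19.6 in MG63, 0.107 in SAOS2 and 11.3 in U2OS. By line means its osteosarcoma lines were above all Ewing sarcoma lines apart from SAOS2, although the highest EW3 library (13.2 TPM) lay above all 3 of U2OS (10.4 to 12.2 TPM). With SAOS2 the edgeR adjusted p was 0.0575 (log2 fold change -2.55 ± 0.84, SE), and without SAOS2 it was 0.00307 at a log2 fold change of -2.81. Of 24 other count-based settings 2 called COL13A1, and the others gave adjusted p up to 0.320. The transcripts assigned to COL13A1 also differed: NM_001368898.1 made up 37.7 ± 11.3% of its TPM in EW3, 51.1 ± 9.88% in SKES1 and 36.2 ± 22.6% in TC71 (SD, n = 3), but 11.2 ± 19.3% in MHHES1, 4.58 ± 7.41% in RDES and at most 2.73% in the 5 osteosarcoma lines that had at least 100 counts of the gene. In A673 it made up 0.000201%. Counts are estimated among 43 similar COL13A1 transcripts, and the 3 libraries of TC71 ran from 14.4 to 59.5%.

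COL23A1 was a collagen of 1 line. MG63 held 211 ± 17.4 TPM (n = 3, from 191 to 225 TPM), and no other line exceeded 0.966 TPM, the level in KHOS. As it was high in a single line it did not pass the filter, and with no filter it was called lower in Ewing sarcoma (edgeR adjusted p = 0.0245). That fit was not repeated without MG63. KHOS and G292 (0.663 TPM) also lay above every Ewing sarcoma line (at most 0.186 TPM), while HOS-MNNG, SAOS2 and U2OS did not.

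The short-chain collagens of types VIII and X form hexagonal lattices in vessel walls, cornea and growth cartilage. COL8A1 (chromosome 3, 99638594 to 99799217) measured 0.857 TPM in A673, 0.0445 in EW3, 0.0234 in EW24, 0.0518 in MHHES1, 0.999 in RDES, 0.127 in SKES1 and 0.0223 in TC71, against 33.2 TPM in G292, 0.762 in HOS-MNNG, 0.335 in KHOS, 8.68 in MG63, 10.3 in SAOS2 and 19.7 in U2OS. It was under 1 TPM in all Ewing sarcoma lines and in HOS-MNNG and KHOS, and between 8.68 and 33.2 TPM in the other osteosarcoma lines. The log2 fold change was -5.34 ± 1.27 (SE; edgeR adjusted p = 0.0141). COL8A2 measured 0.291 TPM in A673, 0.2100 in EW3, 0.303 in EW24, 3.11 in MHHES1, 6.67 in RDES, 3.97 in SKES1 and 0.0416 in TC71, against 0.0695 TPM in G292, 0.107 in HOS-MNNG, 0.273 in KHOS, 0.887 in MG63, 14.9 in SAOS2 and 0.365 in U2OS. SAOS2 was highest, and SAOS2 also held 5.40 TPM of COL10A1, the marker collagen of hypertrophic cartilage, while the next line, G292, held 0.141 TPM.

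COL7A1, the anchoring fibril collagen of skin, measured 2.44 TPM in A673, 4.95 in EW3, 0.806 in EW24, 3.66 in MHHES1, 44.1 in RDES, 4.52 in SKES1 and 0.939 in TC71, against 58.6 TPM in G292, 103 in HOS-MNNG, 79.2 in KHOS, 1.69 in MG63, 174 in SAOS2 and 6.700 in U2OS. RDES lay among the osteosarcoma lines and MG63 among the Ewing sarcoma lines. The libraries of SKES1 disagreed, at 1.87, 1.88 and 9.81 TPM. The log2 fold change of -3.31 ± 1.08 (SE) missed the threshold (edgeR adjusted p = 0.0557) and passed it without RDES (-4.76, adjusted p = 0.00949). Of 24 other count-based settings 6 called COL7A1, and the others gave adjusted p up to 0.101. COL26A1 and COL28A1 did not exceed 8.89 and 0.548 TPM, and neither was called.

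The multiplexins COL15A1 and COL18A1 are basement membrane collagens, and the end of the COL18A1 chain is the source of endostatin. COL18A1 measured 45.5 TPM in A673, 4.83 in EW3, 49.3 in EW24, 3.31 in MHHES1, 58.3 in RDES, 6.52 in SKES1 and 2.503 in TC71, against 56.97 TPM in G292, 167 in HOS-MNNG, 37.3 in KHOS, 14.8 in MG63, 59.98 in SAOS2 and 8.68 in U2OS. HOS-MNNG was highest, edgeR called neither multiplexin between the types, DESeq2 called COL15A1 lower, and no line mean of COL15A1 exceeded 2.58 TPM. The libraries of MG63, its highest line, disagreed, at 205, 0.263 and 271 estimated counts of COL15A1. COL18A1 is transcribed from separate start sites 50357 bases apart on chromosome 21 (45405165 and 45455522 in the RefSeq promoter table). Transcripts NM_030582.4 and NM_130444.3 belong to the downstream site. Together these made up 52.85 ± 2.33% of COL18A1 TPM in U2OS (SD, n = 3). In the other 12 lines their mean share ran from 2.39% in TC71 to 16.1% in MHHES1, whose 3 libraries spread from 7.48 to 25.65%. The total level of COL18A1 in U2OS was 8.68 ± 0.65 TPM. The bases before both sites are shown for comparison, the downstream stretch ending before the first GENCODE transcript start at base 45455489.
COL18A1 upstream site, chr21:45405045-45405164, plus strand: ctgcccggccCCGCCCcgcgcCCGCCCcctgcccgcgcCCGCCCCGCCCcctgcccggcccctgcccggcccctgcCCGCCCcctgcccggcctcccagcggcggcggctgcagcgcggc
COL18A1 downstream site, chr21:45455402-45455488, plus strand: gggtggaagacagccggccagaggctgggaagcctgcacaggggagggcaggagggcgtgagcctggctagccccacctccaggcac
The upstream stretch held 5 matches to GGGCGG, all on the opposite strand, with 91.7% G or C, and the downstream stretch held none with 71.3%.

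Genes that make, modify and bind collagen were read beside the collagens themselves. Of 31 genes of collagen maturation, 9 were called between the tumour types (29.03%, against 14.4% of all genes), 8 lower and 1 higher in Ewing sarcoma. The largest differences among those lower were in ADAMTS2 (log2 fold change -5.70, edgeR adjusted p = 0.0209) and ADAMTS3 (-4.41, adjusted p = 0.0243), proteases that trim the ends of procollagens, and ADAMTS14 (-3.74, adjusted p = 0.0473) of the same family. With no filter on low counts 7 were called, ADAMTS14 (edgeR adjusted p = 0.0539) and CRTAP being lost, against 10.5% of all genes. DESeq2 called 18 of the 31, against 25.1% of all genes. In the exact permutation test ADAMTS3 passed (adjusted p = 0.0239), but ADAMTS2 (adjusted p = 0.115) and ADAMTS14 (unadjusted p = 0.083) did not. ADAMTS2 in KHOS (0.111 TPM) and ADAMTS14 in HOS-MNNG (0.0789 TPM) were below every Ewing sarcoma line. ADAMTS14 in KHOS and U2OS lay within the Ewing sarcoma range. COLGALT2, which adds galactose to hydroxylysine, was the 1 higher gene (log2 fold change 3.15, edgeR adjusted p = 0.0036). It measured 7.95 TPM or more in Ewing sarcoma lines and 0.390 to 3.39 TPM in osteosarcoma lines. SERPINH1, the collagen chaperone of the endoplasmic reticulum, was not called (edgeR adjusted p = 0.671). It measured 5.47 ± 0.78 TPM (n = 3) in SAOS2, the line with the most COL1A1, and 49.2 TPM in HOS-MNNG, the next lowest, up to 749 TPM in MHHES1.

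Of 10 collagen receptors, 6 were lower in Ewing sarcoma lines (60%, against 8.4% of all genes called lower) and none was higher. ITGA10 (log2 fold change -6.80, edgeR adjusted p = 0.00403) and ITGA11 (-5.58, adjusted p = 0.00202) encode collagen-binding integrin subunits. ADGRG1 (-6.06, adjusted p = 0.00201) encodes an adhesion receptor that binds type III collagen. The others called lower were ITGA2, ITGB1 and MRC2. The list's median log2 fold change was -1.89, and that of the maturation list -1.04, against -0.06 for all genes.

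In the A673 hairpin cells, the target was checked first. KCNN1 measured 31.97, 38.9 and 37.2 TPM in parental cells, 37.8, 35.3 and 17.99 TPM in sh908 cells without doxycycline (uninduced), and 10.2, 13.7 and 7.75 TPM with doxycycline (induced). All 3 induced libraries were below all other A673 libraries, and the third uninduced library was the lowest of its group. The third libraries of both sh908 groups also stood apart in their collagens. What sets them apart was not tested. Values are given below in the order of the replicate numbers.

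Collagens that were higher in library 3 of both sh908 groups included the type I chain COL1A2. It measured 192, 196 and 203 TPM in parental, 81.5, 72.5 and 378 TPM in uninduced and 25.2, 61.2 and 355 TPM in induced libraries. COL21A1 measured 91.7, 85.3 and 82.2 TPM in parental, 49.3, 49.2 and 157 TPM in uninduced and 45.5, 53.1 and 147 TPM in induced libraries. COL27A1 measured 8.62, 10.2 and 13.2 TPM in parental, 1.77, 1.33 and 14.8 TPM in uninduced and 1.16, 1.697 and 8.96 TPM in induced libraries. In each of these genes the third library of a sh908 group was above its first and second. COL16A1 measured 60.7, 62.7 and 69.7 TPM in parental, 13.3, 9.81 and 33.8 TPM in uninduced and 7.201, 10.03 and 24.9 TPM in induced libraries. COL18A1 measured 36.1, 49.7 and 50.7 TPM in parental, 10.5, 6.98 and 39.8 TPM in uninduced and 5.01, 7.74 and 27.8 TPM in induced libraries. These behaved alike, whereas COL5A3 had its lowest value in the third library of both sh908 groups. COL5A3 measured 10.9, 13.2 and 15.04 TPM in parental, 4.800, 3.28 and 1.13 TPM in uninduced and 7.32, 7.84 and 1.18 TPM in induced libraries.

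No collagen was called between the 3 induced and the 3 uninduced libraries. None of 26 tested collagens passed with edgeR or with DESeq2, none had an unadjusted edgeR p under 0.05, and edgeR called 0% of the 14252 genes tested, with 94 at an unadjusted p under 0.05. The median log2 fold change of the collagens was -0.31 against 0.00 for all genes, with 18 of 26 negative (69.2%) against 50.4% of all genes. None of the 29 tested maturation genes and none of the 8 tested receptors was called. With libraries paired by replicate number, COL6A2 was the 1 collagen called, against 0.512% of all genes (0.26% lower and 0.253% higher). Correlations between libraries matched the third libraries but did not show that the first and second pair by number. COL6A2 measured 46.4, 43.7 and 46.1 TPM in parental, 31.1, 32.4 and 109 TPM in uninduced and 15.7, 25.1 and 64.2 TPM in induced libraries. It was lower with doxycycline in all 3 pairs, while the groups as wholes overlapped. Its paired log2 fold change was -0.67 ± 0.11 (SE; edgeR adjusted p = 0.0343). COL6A1, its partner, measured 61.8, 61.9 and 68.1 TPM in parental, 54.6, 55.3 and 104 TPM in uninduced and 32.5, 48.6 and 73.2 TPM in induced libraries. It too was lower in all 3 pairs, with a paired log2 fold change of -0.45 and an edgeR adjusted p of 0.0987. Without the third pair, COL6A2 (-0.65, edgeR adjusted p = 0.0482) and COL5A3 (0.999, adjusted p = 0.0178) were called, against 1.21% of all genes (0.537% lower and 0.675% higher). Without the first or the second pair no collagen was called, against 0.0646 and 0.0446% of all genes, and the paired edgeR adjusted p of COL6A2 was 0.323 and 0.0957. Of the receptors, DDR1 was called higher and MRC2 lower without the third pair. Of the markers of other cell types, the keratin gene KRT8 was called higher with doxycycline in the paired fit (0.57 ± 0.10, SE, edgeR adjusted p = 0.0429), and the 7 epithelial, blood and endothelial markers summed to 24.4 to 28.4 TPM in parental, 30.4 to 45.6 TPM in uninduced and 39.8 to 66.2 TPM in induced libraries. The part of these markers in the collagen values of A673 was not tested. No collagen had groups that did not overlap, where 1.46% of all genes lay below and 2.19% above. In all, 8 of 26 collagens were lower in TPM in all 3 pairs, against 21.3% of all genes.

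The remaining collagens of A673 at 10 TPM or more overlapped between the sh908 groups. COL1A1 measured 92.95, 103 and 109.7 TPM in parental, 70.2, 40.3 and 36.2 TPM in uninduced and 33.1, 52 and 26.6 TPM in induced libraries. COL3A1 measured 37.3, 44.4 and 37.4 TPM in parental, 14.5, 10.5 and 21.1 TPM in uninduced and 4.58, 7.72 and 20.8 TPM in induced libraries. COL3A1 was lower in all 3 pairs, COL1A1 only in pairs 1 and 3. COL4A1 measured 60, 68.5 and 66.4 TPM in parental, 23.4, 17.3 and 36.2 TPM in uninduced and 16.8, 20.4 and 41.2 TPM in induced libraries. COL4A2 measured 108, 121 and 123 TPM in parental, 66.9, 55.7 and 79.5 TPM in uninduced and 59.4, 65.8 and 80.5 TPM in induced libraries. For both type IV chains only the first pair was lower with doxycycline. COL5A1 measured 70.8, 64.9 and 66.8 TPM in parental, 38.6, 29.02 and 66.8 TPM in uninduced and 18.6, 31.5 and 43.7 TPM in induced libraries. COL5A2 measured 74.6, 75.95 and 74.3 TPM in parental, 32.2, 23.8 and 58.4 TPM in uninduced and 19.8, 24.2 and 65.6 TPM in induced libraries. COL5A1 and COL5A2 had a higher value in the third than in the second library of either sh908 group.

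**Figure D5:**
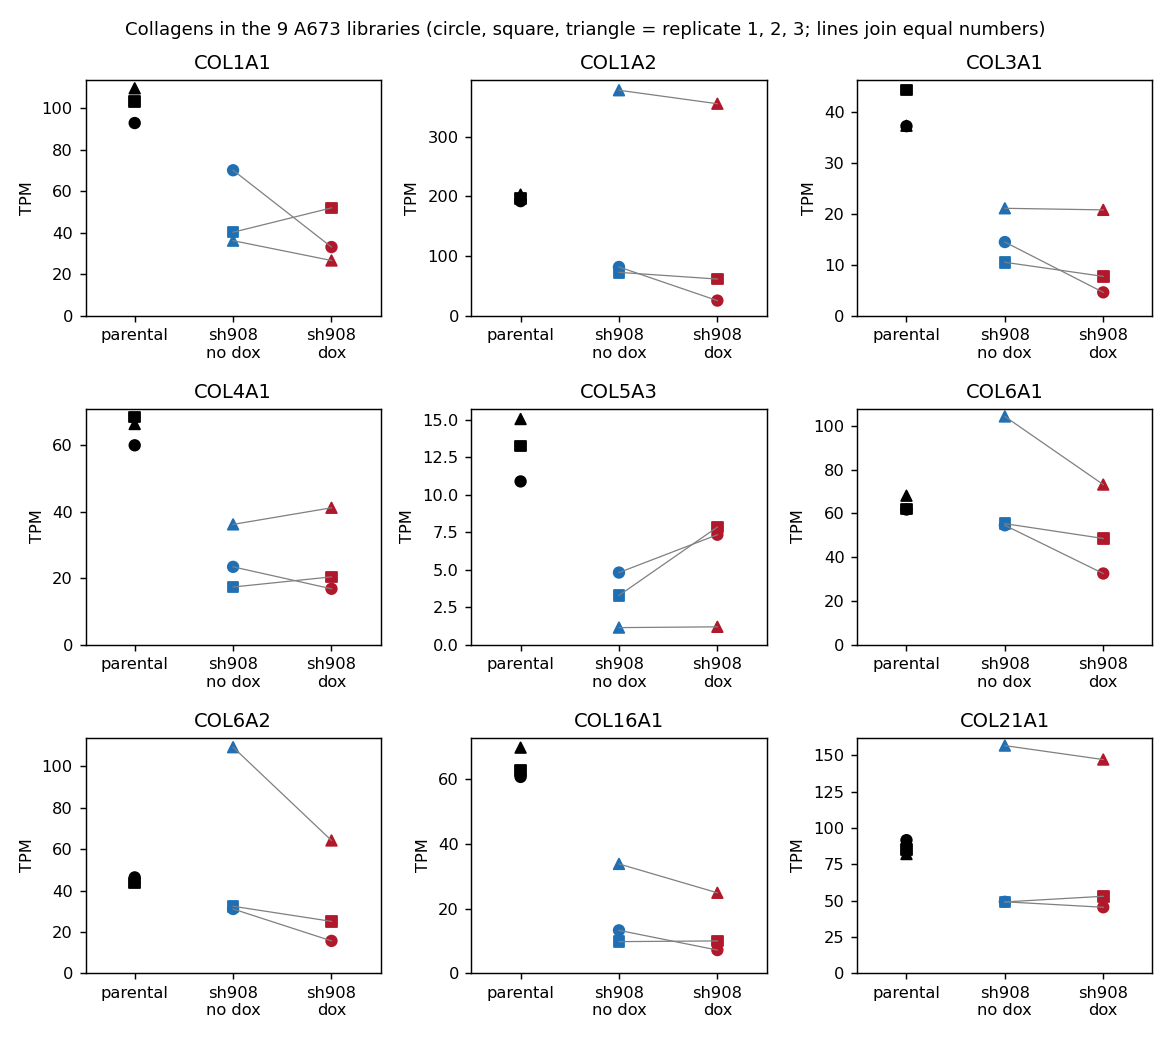
Level of 9 collagens (TPM, axes from 0) in the parental, uninduced and induced A673 libraries, with a marker shape for each replicate number and lines between equal numbers of the sh908 groups. The third libraries (triangles) are high for COL1A2 (378 and 355 TPM) and COL21A1 and low for COL5A3, and COL6A2 falls along all 3 lines.

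Uninduced sh908 cells were also compared with parental A673 cells, using the same uninduced libraries as above. Of 30 tested collagens 5 were called by edgeR (16.7%), against 15.1% of 15778 genes (6.42% lower and 8.71% higher), so collagens were called at about the rate of all genes. COL3A1 (log2 fold change -0.96 ± 0.17, SE, edgeR adjusted p = 0.0183), COL4A1 (-0.94 ± 0.17, adjusted p = 0.0185) and COL16A1 (-1.39 ± 0.27, adjusted p = 0.0222) were lower in uninduced cells. COL9A3, lower as well (-1.16 ± 0.23, edgeR adjusted p = 0.0234), measured 7.05, 8.17 and 6.72 TPM in parental, 2.55, 1.66 and 3.31 TPM in uninduced and 1.12, 1.43 and 2 TPM in induced libraries. For these 4 genes no uninduced library reached the parental range. COL6A1 was called higher (0.56 ± 0.15, edgeR adjusted p = 0.0499), although its TPM values overlapped. Among the other lists, PPIB and CREB3L1 were called higher and FKBP14 lower of 28 maturation genes, and ITGB1 and DDR2 were lower of 9 receptors. Of 5 Ewing sarcoma markers NKX2-2 and PRKCB were called higher. Of 4 tested epithelial, blood and endothelial markers PECAM1 was called lower, and of 3 tested osteoblast lineage markers 0 were called. The part of these markers in the collagen values was not tested.

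The count of calls moved with the libraries used, for collagens and for all genes alike. Without any 1 parental library no collagen was called, against 0.0125 to 0.0505% of all genes, and without the second uninduced library none was, against 1.6%. By contrast, without the third uninduced library 20 of 31 were called (19 lower), against 62.3% of all genes (33.2% lower and 29.1% higher). With replicate number as a block none of the 30 was called, against 2.02% of all genes (0.64% lower and 1.38% higher). The fold changes under the block were close to those above, at -0.97 for COL3A1, -0.95 for COL4A1, -1.16 for COL9A3 and -1.45 for COL16A1. Of the maturation and receptor genes CREB3L1 alone was called with the block, and of the marker lists NKX2-2 alone, both higher. Without the third uninduced library 18 of 28 maturation genes and 5 of 9 receptors were called. TPM and count scaling also differed here: the median difference of all genes was -0.28 in log2(TPM + 1), against 0.01 in the edgeR fit. In TPM, 14 collagens lay below all parental libraries, where 38.8% of all genes did. COL28A1 alone lay above them, against 7.75% of all genes.

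The start site use of COL18A1 also differed between parental and hairpin cells. The downstream transcripts made up 3.97, 2.91 and 4.095% of COL18A1 TPM in parental cells, 21.15, 19.75 and 21.9% in uninduced and 25.9, 18.4 and 24.2% in induced cells. All 6 hairpin libraries were above all 3 parental libraries, while the sh908 groups overlapped. This share was looked at after the levels were known and was not tested.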

How the data were processed

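Per the labels, NucleoSpin RNA Plus was used for extraction and TruSeq Stranded mRNA for the libraries. The submitters' processing notes name fastp 0.19.5, kallisto 0.46.2 and the hg38 build. The authors deposited, per library, estimated counts, TPM (scaled by the authors for length and depth) and effective lengths in bases (another value, per the file headers) for 177816 RefSeq transcripts. Of these, 169966 (95.6%) were joined to genes of GRCh38.p14, and the rest held 0.915 to 1.60% of a library's counts and were left out. Kallisto divides reads among similar transcripts by estimation, so transcript shares are less certain than gene sums.

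Rounded gene counts were tested with edgeR 4.0.16 (filterByExpr, TMM, robust quasi-likelihood, Benjamini-Hochberg over all genes, threshold 0.05) in R 4.3.3, with the 3 libraries of a line summed for the tumour types. DESeq2 1.42.0 and limma 3.58.1 (voom) were alternatives. Exact permutation tests used log2(TPM + 1), a pseudocount of 1 TPM, and were adjusted over all genes and not, as first written in the design, over collagens alone. A group with no count was given a floor of 3 counts over its libraries, which covers counting error only. On counts simulated at a dispersion of 0.3, the edgeR script recovered 79% of genes changed by 2 on the log2 scale between 7 and 6 lines. It recovered 100% of genes changed by 4. The dispersion was assumed and not estimated from these lines, and only genes with ample counts were changed. These rates therefore do not give the share of true collagen differences that would be called here.

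Same-numbered sh908 libraries with and without doxycycline deviated together (correlations of 0.682, 0.582 and 0.881 over 14252 genes, all over 0.1), so the numbers were taken as pairs. Libraries 1 and 2 of different numbers correlated at 0.517 and 0.608, about as much as those of equal number, and library 3 with the others at -0.778 to -0.658. The correlations thus match library 3 across the groups and do not show that libraries 1 and 2 pair by number.

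Collagens at 10 TPM or more in any line, or called, were given in all 13 lines (COL14A1 and COL23A1 by their highest lines and the range of the others), with the same rule for the A673 groups. Of the maturation and receptor lists, the 3 largest called differences in each direction and SERPINH1 were given, and others named were chosen after their values were seen. Members, classes and lists were chosen with earlier results of these data known.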

Additional observations from a re-analysis of the deposited data

Results flagged for a closer look

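For the 30 collagens that reached 10 TPM in any line, each tumour type was searched for a line far from its others in log2(TPM + 1), by the gap to the nearest line relative to the whole range (Dixon's critical value). Of 60 combinations of a gene and a tumour type 13 passed. Chance passes about 1 in 20 groups, but that rate does not hold here, since the genes were chosen for a high level in any line. COL23A1 in MG63 and COL8A2 in SAOS2, for example, were searched only because of the line that then passed. In 10 the line was the highest and in 3 the lowest, and RDES and SAOS2 had 4 each.

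Among Ewing sarcoma lines, COL4A2 measured 0.0765 TPM in TC71 and 16.7 to 117 TPM in the other 6. RDES was above all others for COL7A1 (44.1 against 0.805 to 4.95 TPM), COL11A1 (47.6 against 0.00295 to 3.70 TPM) and COL22A1 (14.4 TPM against at most 0.592 TPM). COL23A1 in RDES, at 0.186 TPM against at most 0.0536 TPM, passed as well at a low level. COL14A1 measured 9.82 TPM in SKES1 and no more than 0.0256 TPM in any other line of that type.

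Among osteosarcoma lines, SAOS2 was highest for COL5A1 (689 against 19.5 to 73.6 TPM), COL8A2 (14.9 against 0.0695 to 0.887 TPM) and COL21A1 (0.997 against at most 0.155 TPM). It was lowest for COL13A1, at 0.107 TPM against 11.3 to 46.9 TPM. COL22A1 measured 96.1 TPM in G292 and at most 3.51 TPM in the others. MG63 held 211 TPM of COL23A1 against at most 0.966 TPM elsewhere, and was lowest for COL27A1 (3.86 against 12.5 to 21.3 TPM).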

How the results depend on the processing

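The edgeR fold changes of the collagens with an adjusted p under 0.1 between tumour types, of those called between uninduced and parental cells, and of COL5A3 and COL6A2 with doxycycline kept their sign in every setting. Signs of the other collagens were not followed. Between tumour types 9 collagens were called (14.4% of all genes), against 16 with DESeq2 (25.1%) and 15 with limma voom on single libraries, without (20.7%) or with the replicate block (20.4%). Leaving out 1 line or 1 replicate number gave 7 to 12 (10.6 to 14.2%). The permutation test called 5 (5.21% of all genes), against 8 among genes at 1 TPM or more (12.04%) and 2 with HOS-MNNG and KHOS as 1 line (3.09%). Leaving out 1 line gave 0 to 6 (0 to 4.63%), with 0 without EW24, MHHES1, RDES or SKES1. Leaving out any line lowers the number of splits and raises the smallest p. Why these lines in particular gave 0 was not tested.

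With doxycycline 0 collagens were called and 1 with the replicate block (0.512% of all genes). Leaving out single libraries gave 0 (0%), and leaving out a pair with the block gave 0 to 2 (0.0446 to 1.21%). Between uninduced and parental cells 5 were called (15.1% of all genes), against 9 with DESeq2 (26.5%) and 0 with the replicate block (2.02%). Leaving out a library gave 0 to 20 (0.0125 to 62.3%) and leaving out a replicate number with the block 0 to 16 (1.26 to 52.8%), both highest without replicate 3. Those libraries share only a number (same-number correlations of 0.0455, 0.0867 and 0.250), so a call lost under this block is not a weaker effect. The cause of these shifts was not tested. Collagens with few counts, such as COL6A5, were limited by depth: 3 counts over a line are worth up to 0.0106 TPM of it in MG63.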
